A study of Mus musculus with 4 samples.

Results

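Migratory dendritic cells carrying Ccr7 and Fscn1 numbered 139 among 32396 immune cells sorted from subcutaneous MC38 tumours in mice. They were chosen cell by cell from raw UMIs (unique molecular identifiers, the counted mRNA molecules). A cell needed at least 300 detected genes, at most 15% mitochondrial UMIs, at least 1 UMI each of Ccr7 and Fscn1, and at least 3 UMIs of the class II gene H2-Ab1. It also needed 0 UMIs of Cd3e plus Cd3d (T cells), Ncr1 (NK cells) and Cd79a (B cells), and under 10 UMIs of the macrophage genes C1qa, C1qb and C1qc together. The rule therefore used the cells' own expression, and the levels of these 10 genes are descriptions of the choice.

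Dendritic cells sample antigen in tissue and mature when they meet danger signals or take up dying cells. A maturing cell gains CCR7, the receptor for the lymph node chemokines CCL19 and CCL21, and fascin (Fscn1), which bundles actin, and it then leaves for the draining node, where it shows antigen to T cells. In tumours this state, also called the CCR7+ or regulatory mature state, is known for joining T cell stimulating genes with inhibitory ones such as Cd274, which encodes PD-L1.

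The study compared CD45+ cells from 2 libraries labelled WT with 2 labelled cKO for Ufl1, which encodes the ligase of the UFM1 conjugation pathway. Per the labels, mice aged 8 weeks received 100000 MC38 cells (a mouse colon adenocarcinoma line) under the skin. After 16 days the tumours were removed and dissociated with collagenase, and the cells were cryopreserved and thawed before the run; no other treatment is given. By its title, the series concerns loss of Ufl1 in T cells, so the dendritic cells of cKO mice need not lack it. Neither the driver of the deletion, the exons deleted nor the mouse strain is named. Separate animals per library are not stated either, and p-values then reflect spread between libraries, which may be technical.

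The libraries held 64141857 to 79747752 UMIs and 7267 to 9357 cells each. Ufl1 stood at 16.4, 16.3, 17.1 and 18.8 CPM (UMIs per 1000000 summed UMIs) in the 4 libraries (WT replicates 1 and 2, then cKO replicates 1 and 2), and at 10.7, 8.00, 14.4 and 12 CPM in the migratory cells. No library was low, and counts read from 1 end of a transcript do not check a deletion of unnamed exons elsewhere in it. The second cKO library stood apart: Xist reached 297 CPM there and at most 0.906 CPM in the other 3, whereas Ddx3y had 12 UMIs there and 3262 to 3922 elsewhere. The migratory cells followed this, with 62 Xist UMIs in that library and 0 in the others. The gene lists compared between genotypes are given without it too. Across libraries, 882 barcode sequences occurred in 2 files and 20 in 3.

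The label held up against markers that the rule did not use. Flt3, the growth factor receptor of dendritic cells, stood at 153 to 232 CPM in the migratory cells and at no more than 3.83 CPM in NK cells. Zbtb46, a transcription factor of conventional dendritic cells, stood at 62.8 to 101 CPM, against 7.70 to 11.8 CPM in NK cells. Ccl22, the third marker of the state, was 769, 196, 414 and 299 CPM in the same order of libraries, and at most 3.60 CPM in B cells and 7.46 CPM in macrophages. Some single genes of other cells were low: Trac reached 8.00 CPM, Ms4a1 12 CPM, S100a8 8.96 CPM and Adgre1 8.63 CPM at most in any library.

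The whole marker lists of other cells were not all low. T cell genes summed to 23.6 to 40.0 CPM and B cell genes to 25.8 to 84.0 CPM, lists that the rule lowers by its own criteria, neutrophil genes to 0 to 23.9 CPM and mast cell and basophil genes to 0 to 5.76 CPM. Macrophage genes summed to 775, 688, 1033 and 1174 CPM in the library order given above, against 848 to 1113 CPM in the immature dendritic cells described further on. Monocyte genes summed to 1632 to 3712 CPM, below 5004 to 6456 CPM in immature cells, and plasmacytoid dendritic cell genes to 863 to 1656 CPM, against 853 to 1172 CPM. NK genes, a list that holds Ccl5, gave 3440 to 6565 CPM, tumour epithelium genes 1243 to 1880 CPM and stromal genes 64.0 to 172 CPM. The part of such cells or their free RNA in the members' values was not tested.

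A few single cells carried other programs. Erythrocyte genes summed to 3224 CPM in WT replicate 2 and to at most 10.7 CPM elsewhere. In WT replicate 2, 677 of 678 Hbb-bs UMIs, a haemoglobin gene, lay in 1 migratory cell. In cKO replicate 2, 1 cell held all 90 UMIs of Ly6d. Siglech, a plasmacytoid dendritic cell gene, had UMIs in 4 of the 139 cells, 1 in each library, with 1 to 19 UMIs. Doublet scores placed 7, 5, 2 and 1 of the members among the highest of their libraries, in the library order given above.

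Members lay at different distances from the thresholds. The median cell held 28 to 50 Ccr7 UMIs, 17 to 29 Fscn1 UMIs and 35 to 58 H2-Ab1 UMIs, depending on the library. In the same order of libraries, 3, 2, 2 and 0 members had exactly 1 Ccr7 UMI, and 4, 4, 3 and 2 had exactly 1 Fscn1 UMI. Near the other thresholds, 9, 3, 5 and 4 members had 3 to 5 H2-Ab1 UMIs, and 9, 10, 11 and 8, together 38 of 139, had 1 to 9 UMIs of the C1q genes. Just outside, 63, 33, 39 and 49 cells had Ccr7 without Fscn1, with a median of 2 or 3 Ccr7 UMIs, so they did not hold Ccr7 at the level of the members. The H2-Ab1 threshold was different: 49, 39, 35 and 31 cells passed every other criterion with under 3 H2-Ab1 UMIs, and they are described further on.

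**Figure D1:**
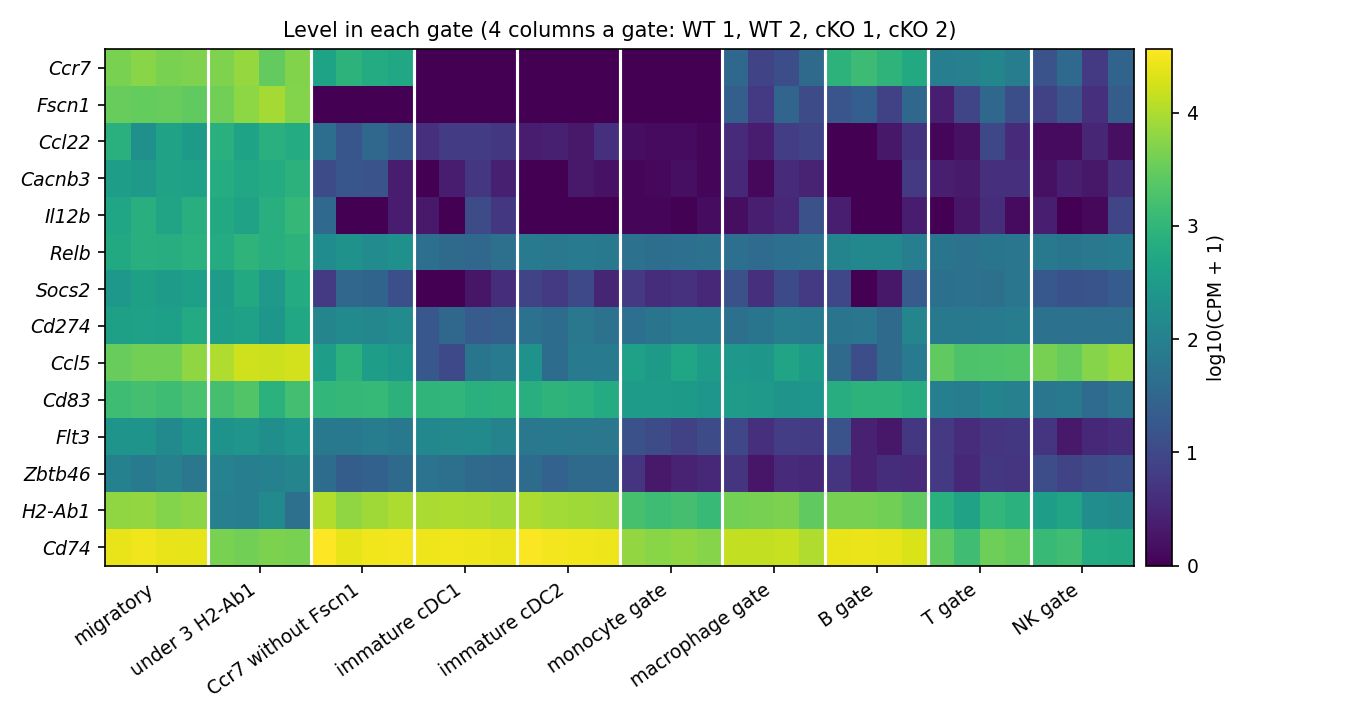
Level of 14 genes, as log10(CPM + 1) of UMIs summed per library, in 10 gates with 4 columns each (WT replicates 1 and 2, cKO replicates 1 and 2). Ccl22, Cacnb3, Il12b and Socs2 are bright in the migratory cells and in the cells with under 3 H2-Ab1 UMIs and dark in immature dendritic cells, and Flt3 and Zbtb46 are seen in every dendritic gate.

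The members made up 0.674% of the cells in WT replicate 1 (49 cells, exact Clopper-Pearson 95% interval 0.499 to 0.890), 0.299% in WT replicate 2 (28 cells, 0.199 to 0.432), 0.399% in cKO replicate 1 (31 cells, 0.271 to 0.566) and 0.388% in cKO replicate 2 (31 cells, 0.263 to 0.550). These intervals, like all counting intervals here, cover counting error only. Both cKO libraries lay between the WT libraries. The WT mean was 0.487% ± 0.265 (SD, n = 2) and the cKO mean 0.393% ± 0.00797 (SD, n = 2), a difference smaller than the WT spread (exact two-sided permutation test, p = 1; 2 libraries against 2 cannot give less than 0.3333). Without WT replicate 1 the difference changed sign, from -0.0936 to 0.0939 percentage points.

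Immature dendritic cells served for comparison: cells that met the same rule but had no Ccr7 or Fscn1 UMI and at least 2 UMIs of Xcr1 plus Clec9a (cDC1, the cross-presenting lineage, 272 cells) or of Cd209a (cDC2, the lineage that mainly primes CD4 T cells, 622 cells), with none of the other lineage or of Siglech. Migratory cells were 16.1% and 10.4% of migratory plus immature cells in WT replicates 1 and 2 and 11.6% and 16.2% in cKO replicates 1 and 2. The genotypes overlapped again, at 13.2% ± 4.03 in WT and 13.9% ± 3.27 in cKO (SD, n = 2 each; exact permutation p = 0.667). Leaving out WT replicate 2 or cKO replicate 2 turned the direction of this difference, to -2.15 and -1.61 points.

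**Figure D2:**
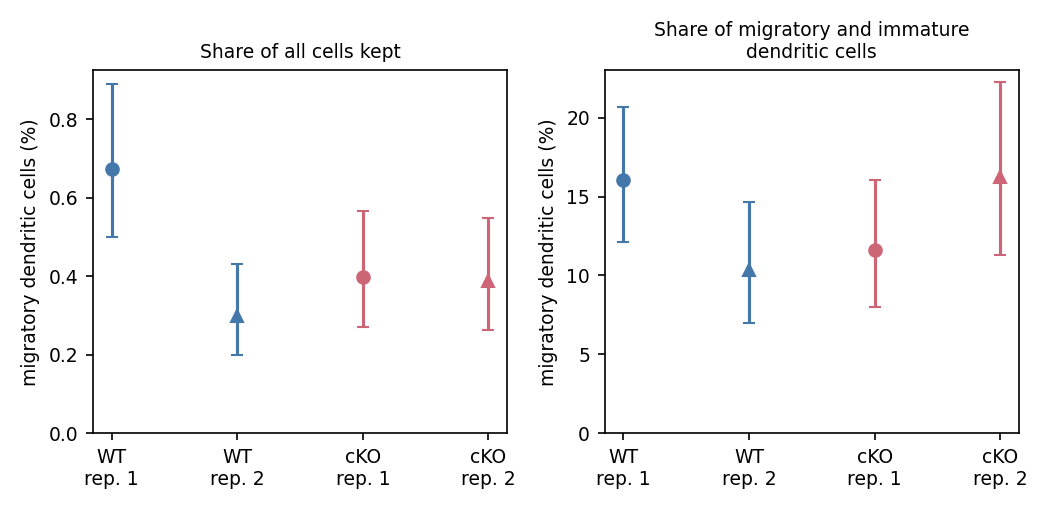
Share of migratory dendritic cells in each library, in percent of all cells kept (left) and of migratory plus immature dendritic cells (right); bars are exact 95% binomial intervals. On the left WT replicate 1 is highest at 0.674% and both cKO libraries lie between the WT libraries.

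Because the rule and the immature gate were both set on expression, migratory and immature cells were compared as a description, with no test. UMIs were summed per library and state and scaled to CPM, and a gene's ratio was taken on CPM + 5 within each library, which understates the ratio of low genes. Of 5050 genes with a mean of at least 20 CPM, 365 (7.23%) were at least 2-fold higher in the migratory cells in all 4 libraries and 239 (4.73%) at least 2-fold lower. At 4-fold, 142 genes (2.81%) were higher and 19 (0.376%) lower. The median ratio of all 5050 genes was -0.07 on the log2 scale, and -0.13 with TMM scaling, a correction for composition. In the sums, more cells expressing a gene and more RNA per cell cannot be told apart.

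The highest ratios outside the rule belonged to genes nearly silent in immature cells. Cd63, a tetraspanin of late endosomes, stood at 1114 and 1160.0 CPM in WT replicates 1 and 2 and at 949.8 and 1189 CPM in cKO replicates 1 and 2, against 8.57, 6.04, 4.55 and 1.8 CPM in immature cells of the same libraries. Its median ratio was 103-fold, and 119 of 139 members had a Cd63 UMI. Cacnb3, a calcium channel subunit, was 361, 280.0, 426 and 403 CPM against at most 2.28 CPM in immature cells. Mreg, which takes part in lysosome positioning, was 281, 280.0, 299 and 299 CPM against at most 0.591 CPM. Both varied little between libraries, with ranges of 5.73 to 6.19 (Cacnb3) and 5.68 to 5.93 (Mreg) in the log2 ratio. Fabp5, a fatty acid carrier, was the most abundant of these genes after Ccl5, with 2877, 3212, 2516 and 4405 CPM against 53.5 to 100 CPM. The 20 highest also held Zmynd15, Nudt17, Tbc1d4, Anxa3, Eno3, H2-Eb2, Serpinb6b, Tcf7 and Sema7a, besides the cytokine, chemokine and regulatory genes described next.

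**Figure D3:**
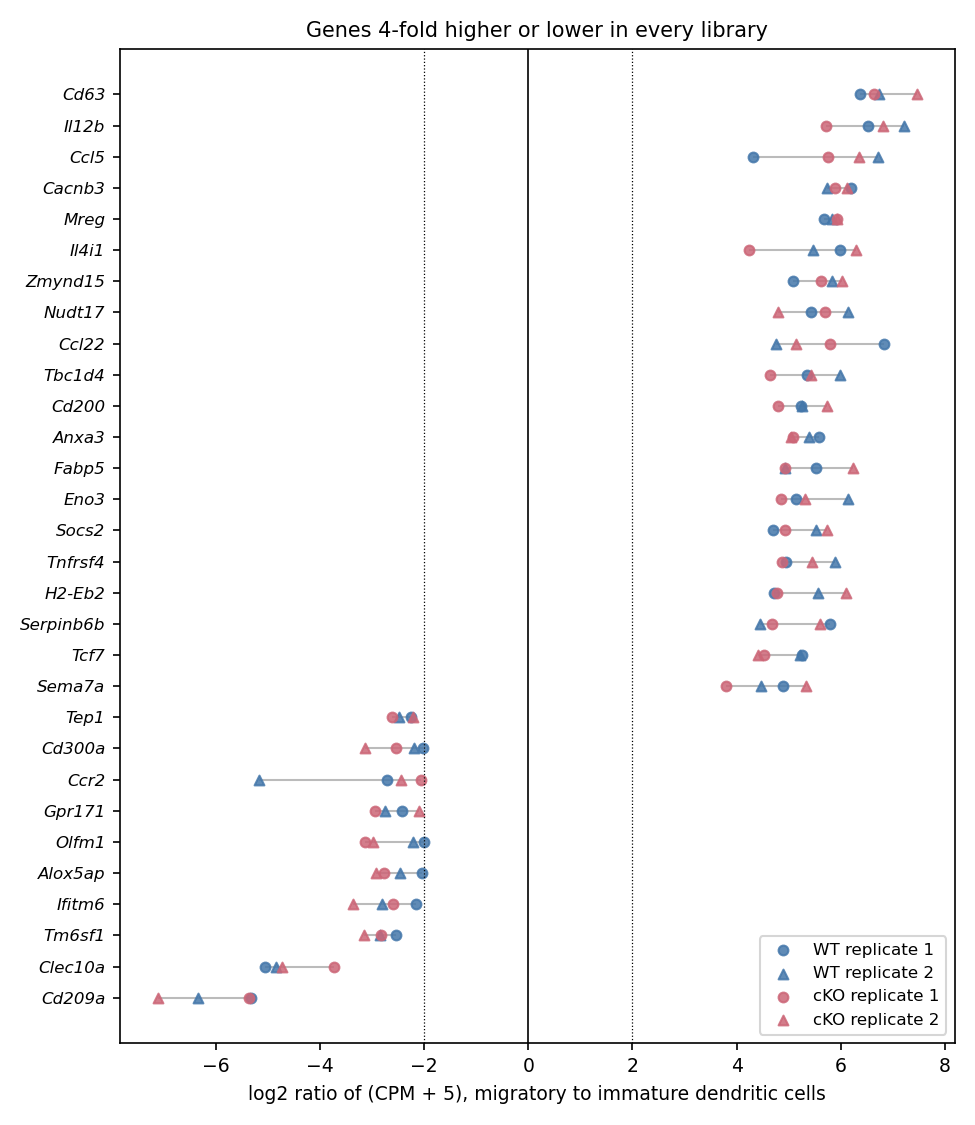
Log2 ratio of (CPM + 5), migratory to immature dendritic cells, for the 20 highest and 10 of the 11 lowest genes that were at least 4-fold apart and above 100 CPM in the higher state in every library; 1 point a library, grey lines span the 4, dotted lines mark 4-fold. Cd63 and Il12b lead at medians of 6.68 and 6.66, and Cd209a, used to gate the immature cells, lies lowest at -5.85.

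Genes of movement and shape are described first. The gene lists were chosen with earlier results of these data known, so a ranking of lists is no result. Over all 5050 genes, 7.23% were at least 2-fold higher in every library and 4.73% at least 2-fold lower. Of 23 genes kept on the migration and cytoskeleton list, 13 were at least 2-fold higher in every library and 2 lower, with a median log2 ratio of 2.23. Tmem123 (porimin), a known gene of this state, was 1688, 1996, 1580.1 and 1960.4 CPM against 87.8 to 113 CPM, an 18.5-fold median ratio. Marcksl1, an actin-regulating substrate of protein kinase C, was 1681, 1488, 1566 and 1608 CPM against 164 to 266 CPM. Gpr183, an oxysterol receptor that guides dendritic cells, was 247, 156, 239 and 281 CPM against 69.4 to 72.9 CPM. Itgb7, an integrin chain, was among the lower ones.

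Chemokine genes separated into a few that were far higher and many that were not. Of 13 kept, Ccl22, Ccl5 and Cxcl16 were at least 2-fold higher in every library and Ccl6 and Ccl9 lower. Ccl22, a ligand of CCR4 on regulatory T cells, had a median ratio of 44.2-fold, and was highest in WT replicate 1. Ccl5, a chemokine that attracts T cells, was 3199, 3876, 3937 and 6282 CPM against 155, 32, 68.0 and 72.3 CPM in immature cells. Cxcl16, the ligand of CXCR6 on effector T cells, was 631, 960.0, 745 and 1222 CPM against 108 to 164 CPM. Ccl17, the other CCR4 ligand, was 191, 80.0, 248 and 38.8 CPM and 1 cell held 34 of its 89, 17 of 20, 76 of 86 and 11 of 13 UMIs. Its median log2 ratio was 3.57 against immature cDC1 and 0.79 against immature cDC2; with so few cells behind it, this difference has no support beyond them.

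Per cell, the chemokine and cytokine genes were unevenly spread. Ccl22 had a UMI in 79 of 139 members (56.8%), against 4.41% of immature cDC1, 1.77% of immature cDC2 and 0.280% of NK cells, which should lack it. Median depth was 7632.5 to 11638 UMIs in members, 11431 to 13765 in immature cells and 6213.5 to 8609 in NK cells. With every cell thinned to 3000 UMIs, which left 125 members, the Ccl22 share was 40.0% in members and 0.124% in NK cells. Il12b had a UMI in 49 members (35.3%, or 28.0% thinned) and in 0.196% of NK cells. Both genes were seen in 36 cells, Ccl22 alone in 43, Il12b alone in 13 and neither in 47. Ccl17 was largely a subset of Ccl22: 25 of its 27 positive members also had Ccl22. Ido1, a tryptophan-degrading enzyme, had a UMI in only 7 members and Aldh1a2, which makes retinoic acid, in 21. Ccl5 shares were no guide, since 84.9% of members and 78.4% of NK cells, which make it, had a UMI.

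Cytokine genes that act on T and NK cells were higher. Il12b, the shared p40 chain of IL-12 and IL-23, was 479, 736, 463 and 708 CPM against 0.295, 0, 3.90 and 1.35 CPM. A single cell carried 168 of the 223 Il12b UMIs in WT replicate 1 and 125 of 184 in WT replicate 2, and 52 of 161 in cKO replicate 1 and 143 of 237 in cKO replicate 2. Il15, a survival factor of NK and memory T cells, was 68.7, 100, 54.7 and 53.8 CPM against 13.3 to 19.3 CPM, and its presenting receptor Il15ra was 81.6, 44.0, 66.2 and 59.8 CPM against 8.88 to 13.5 CPM. Ebi3, a subunit of IL-27, was 2.26-fold higher by median. These were 4 of the 8 kept genes of the list, and none of the 8 was 2-fold lower.

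Some costimulatory and some inhibitory genes were higher. Cd80, the CD28 and CTLA-4 ligand, was 198, 164, 147 and 167 CPM against 21.1 to 34.3 CPM. Its partner Cd86 was only 1.68-fold higher by median, Cd83, which stabilises class II at the surface, 1.74-fold and Cd40 2.15-fold, and none of the 3 reached 2-fold in every library. Of the costimulation list, 4 of 11 kept genes did (Cd80, Icosl, Tnfrsf4 and Tnfrsf9) and 1 was lower (Cd48). Tnfrsf4, which encodes OX40, stood at 167, 356, 161 and 233 CPM against at most 1.07 CPM. On the inhibitory and regulatory list, 7 of 16 were higher and 2 lower (Lgals9 and Entpd1), with a median log2 ratio of 0.44.

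PD-L1 was prominent among the inhibitory genes. Cd274 stood at 397 and 404 CPM in WT replicates 1 and 2 and 371 and 607 CPM in cKO replicates 1 and 2, against 41.7, 38.3, 48.8 and 41.8 CPM, a median ratio of 9.02-fold. It had a UMI in 112 members (80.6%, or 64.8% thinned to 3000 UMIs), against 14.4% of thinned NK cells. Pdcd1lg2, which encodes PD-L2, was 58.0, 92.0, 72.0 and 128 CPM against 4.04 to 8.46 CPM. Il4i1, a secreted amino acid oxidase that limits T cells, was 777, 564, 979 and 663 CPM against 3.59 to 47.5 CPM. Cd200, the ligand of the inhibitory receptor CD200R, was 271, 200, 216 and 284 CPM against at most 2.93 CPM. Socs2, a brake on cytokine signalling, was 264, 388, 325 and 380.0 CPM against 2.25 to 5.86 CPM. All 5 were higher in each library. For Il4i1, Cd200 and Socs2, which are among the 20 highest genes, this was a condition of the choice.

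The NF-kB pathway, which drives dendritic cell maturation through a canonical arm and a slower noncanonical arm of RelB and p52, was higher on many of its members. Of 24 genes kept, 12 were at least 2-fold higher in every library and 0 lower, with a median log2 ratio of 1.28. Relb was 579.7, 716, 694 and 825 CPM against 57.9 to 65.9 CPM, an 11.3-fold median ratio. Nfkb2, the precursor of p52, was 292, 300.0, 366 and 397 CPM against 68.2 to 73.5 CPM, and Map3k14, which encodes the noncanonical kinase NIK, was 174, 172, 204 and 200 CPM against 39.4 to 49.9 CPM. Birc2, which encodes the NIK-degrading ubiquitin ligase cIAP1, was 326, 344, 271 and 394 CPM against 19.5 to 25.6 CPM. Nfkb1, the canonical p50 precursor, was close in the 2 states, with a median log2 ratio of 0.24 and a range of -0.26 to 0.50.

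Promoters of this group were read because its members were higher together. The windows run from 250 bases before to 50 after the annotated start (RefSeq, mouse build GRCm38.p6), and the letters GGANTTTCC and GGGNNTTCC, which resemble the kB site, were searched on both strands, overlaps included. The first was in 1.25% and the second in 5.82% of 32851 windows. Either was in a window of 11 of 21 NF-kB list genes (52.4%), against 7.92% of 27025 genes and 10.8% of the kept genes. The list was made to hold the pathway and its targets, which can set its share in advance. Among genes that were 4-fold higher, a set not chosen by pathway, it was 16 of 113 (14.2%). Of the 20 highest genes, 15 had a window and 0 held a match. Windows are printed for Nfkb2 (chr19:46304487-46304786, plus strand), Rel (chr11:23770920-23771219, minus strand) and Birc2 (chr9:7837008-7837307, minus strand), where capitals mark the matches, and for Ccl22 (chr8:94745434-94745733, plus strand), a highest gene with none. A match is a run of letters and not a shown binding site.
Nfkb2: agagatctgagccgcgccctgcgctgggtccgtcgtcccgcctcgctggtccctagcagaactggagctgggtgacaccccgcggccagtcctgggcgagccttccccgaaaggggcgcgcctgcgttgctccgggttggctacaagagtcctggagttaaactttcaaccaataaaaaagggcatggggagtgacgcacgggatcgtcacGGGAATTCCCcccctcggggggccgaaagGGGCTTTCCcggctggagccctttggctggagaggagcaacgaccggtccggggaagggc
Rel: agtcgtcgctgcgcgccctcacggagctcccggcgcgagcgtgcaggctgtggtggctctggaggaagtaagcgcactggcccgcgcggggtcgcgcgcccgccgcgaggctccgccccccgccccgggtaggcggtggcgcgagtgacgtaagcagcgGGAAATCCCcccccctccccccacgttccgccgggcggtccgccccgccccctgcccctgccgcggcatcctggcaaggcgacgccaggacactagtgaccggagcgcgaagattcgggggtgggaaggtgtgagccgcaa
Birc2: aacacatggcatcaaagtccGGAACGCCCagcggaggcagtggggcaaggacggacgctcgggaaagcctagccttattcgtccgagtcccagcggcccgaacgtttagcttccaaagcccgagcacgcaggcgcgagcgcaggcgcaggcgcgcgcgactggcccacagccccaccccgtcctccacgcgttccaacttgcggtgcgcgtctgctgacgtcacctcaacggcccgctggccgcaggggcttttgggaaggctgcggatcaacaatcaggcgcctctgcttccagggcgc
Ccl22: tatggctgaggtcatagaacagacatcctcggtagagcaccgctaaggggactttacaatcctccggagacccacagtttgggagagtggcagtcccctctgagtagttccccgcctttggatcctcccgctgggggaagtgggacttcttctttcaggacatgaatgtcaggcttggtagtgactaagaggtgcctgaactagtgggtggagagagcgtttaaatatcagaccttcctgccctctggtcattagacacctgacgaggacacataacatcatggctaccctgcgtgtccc

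The Nfkb2 window holds 3 matches, 2 of which overlap, and the Rel and Birc2 windows hold 1 each. Nfkb2 and Birc2 have further annotated starts, whose windows are not printed. Each further Nfkb2 window holds 1 match, and the further Birc2 window holds 0. Rel, the c-Rel subunit of the canonical arm, was 683, 780.0, 610.2 and 825 CPM in the migratory cells against 185 to 212 CPM, a 3.59-fold median ratio.

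Survival genes and other regulators followed. Of 15 kept survival and death genes, 8 were at least 2-fold higher in every library and 0 lower. Bcl2a1b, an antiapoptotic BCL2 relative with near-identical copies, was 921, 1156, 1643 and 1154 CPM against 93.0 to 134 CPM; reads may be split among the copies. Serpinb9, an inhibitor of granzyme B, was 438, 216, 599 and 403 CPM against 8.88 to 23.4 CPM. Of 35 transcription factors, 8 were higher and 1 lower (Batf). Stat4, the signal transducer of IL-12, was 318, 368, 250.4 and 341 CPM against 20.8 to 31.0 CPM. Etv3 was 4.76-fold and Nr4a3, a nuclear receptor that mouse dendritic cells use for migration, 4.25-fold higher by median. Tcf7, best known from T cells, was 185, 180.0, 118 and 111 CPM against at most 0.449 CPM. The T cell list summed to 23.6 to 40.0 CPM in the members, but the rule lowers that list by its own criteria. Whether RNA of T cells adds to Tcf7 was not tested.

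Class I genes were in part higher, and class II genes are given with a limit: the rule required H2-Ab1, so it bears on the class II level of the members. Of 22 class I genes, 8 were at least 2-fold higher in every library and 0 lower. The classical heavy chain H2-K1 was 3665, 4688, 4027 and 4826 CPM against 1384 to 1539 CPM, and Psme2, a proteasome activator subunit, was 1771, 2044, 2184 and 1934 CPM against 590 to 686 CPM. Nlrc5, the class I transactivator, was 107, 80.0, 106 and 114 CPM against 20.9 to 34.6 CPM. Class I family members such as H2-Q7 (8.97-fold) share sequence, so their reads are uncertain between copies. Of 13 class II genes, 0 were 2-fold higher and 4 lower; H2-Aa and Cd74, the invariant chain, had median log2 ratios of 0.13 and -0.18. In the cells below the H2-Ab1 threshold, H2-Aa and Cd74 were at 0.203 and 0.175 of the members' level by median, so the ratios to immature cells hold for the cells chosen. Among the lower were H2-DMb1, which loads peptides onto class II, at 326, 176, 138 and 179 CPM against 1027 to 1299 CPM, H2-DMa (2.23-fold lower), and Marchf1, the ligase that removes class II from the surface, at 19.3, 20, 11.5 and 5.98 CPM against 66.4 to 87.8 CPM. The fourth, Cd209a, belongs to cDC2 cells and was placed on that list in error. H2-Eb2, an atypical class II chain that is not on the list, went the other way, at 174, 316, 167 and 368 CPM against at most 1.78 CPM.

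A minority of uptake and lineage genes were 2-fold lower in every library. On the antigen uptake and sensing list, 8 of 24 kept genes were at least 2-fold lower in every library and 1, the lysosomal Lamp1, higher. Of the lineage lists, 5 of 13 cDC1 and 5 of 16 cDC2 genes were lower; the immature cells were gated on UMIs of such genes, which sets part of these ratios. Cd68, a scavenger receptor, was 110, 60.0, 69.1 and 131 CPM against 310 to 391 CPM. Clec10a, a lectin of cDC2, was 2.15, 0, 11.5 and 0 CPM against 127 to 232 CPM, but its median log2 ratio was -5.25 against cDC2 and -0.49 against cDC1, so the ratio depended on the lineage it was set against. Some of the lowest genes were lower by a like amount against both lineages. Alox5ap, needed for leukotriene synthesis, was 333, 256, 181 and 185 CPM against 1264 to 1435 CPM, and its ratio was -2.46 against cDC1 and -2.68 against cDC2. Tm6sf1 (-2.70 and -2.91), Olfm1 (-2.15 and -2.75) and Gpr171 (-2.73 and -2.47) did likewise. The remaining ones leaned on cDC2, with ratios against cDC1 and cDC2 of -1.40 and -3.05 for Ifitm6, -0.76 and -2.79 for Cd300a, -1.74 and -2.55 for Tep1, and -1.41 and -2.91 for Ccr2. Ccr2, a receptor for monocyte chemokines, was 40.8, 0, 48.9 and 38.8 CPM against 175 to 296 CPM.

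Few genes of other programs were 2-fold apart in every library, although several lists leaned lower. Median log2 ratios were -0.57 for heat shock and dissociation genes, -0.55 for type I interferon response genes, -0.46 for glycolysis and hypoxia genes, -0.25 for oxidative phosphorylation genes and -0.20 for cell cycle genes, against -0.07 for all genes. Ldha (2.23-fold), Pkm (2.12-fold), Jun (2.71-fold) and Ifit3 (3.45-fold) were lower by median without passing 2-fold in each library. Of the 18 glycolysis and hypoxia genes and the 11 cell cycle genes kept, 0 were 2-fold apart in every library. Of 27 oxidative phosphorylation genes 1 was lower (Cycs), and of 24 heat shock and dissociation genes 1 was lower (Egr1). The cholesterol and lipid list had 2 of 16 higher, Fabp5 and Apoe, a lipid carrier that also marks macrophages. Apoe had a UMI in 38 of 139 members, and 1 cell held 76 of its 111, 18 of 37, 139 of 158 and 44 of 58 UMIs. The UFM1 conjugation list had 0 of 7 apart. For type I interferon response genes 0 of 25 were higher and 2 lower (Ifit1 and Ifi204).

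UMIs of lineage genes were counted per member as traits of cDC1 or cDC2; they are not a lineage of origin, which was not tested. Of the members, 28, 9, 19 and 20 had any UMI of 12 lineage genes in the same order of libraries, and 9, 0, 9 and 2 of them had more cDC1 than cDC2 UMIs. A lineage UMI alone tells little: 32.1% to 64.5% of members had one, against 49.3% to 62.4% of NK cells, which make some of these genes, and 25% to 39.2% of B cells, whose median depth was 2975 to 3817.5 UMIs. Members with more UMIs of 1 lineage were often deeper than the rest, which include members with equal UMIs of both. Medians in WT replicate 1 were 9568 (cDC1) and 11661 (cDC2) against 5849 UMIs. In cKO replicate 1 they were 11600 and 13068 against 10964. In cKO replicate 2 the 2 cDC1-trait members were less deep, with medians of 7874.5 and 11814 against 9358. The cDC2 median in WT replicate 2 was 13371 against 6873.5. Members with more UMIs of 1 lineage held 14 of the 15 members with the highest doublet scores. Of those with a lineage UMI, the share with more cDC1 UMIs was 32.1%, 0%, 47.4% and 10.0%, and the groups overlapped, at 16.1% ± 22.7 in WT and 28.7% ± 26.4 in cKO (SD, n = 2 each; exact permutation p = 0.667). Without WT replicate 2 the difference turned from 12.6 to -3.46 points, and without cKO replicate 1 to -6.07 points. Il12b stood at 1040 CPM (95% Poisson interval 912 to 1181) in the sum over members with cDC1 traits and 519 CPM (463 to 580) over those with cDC2 traits. Ccl22 had the opposite order, 235 CPM (177 to 307) against 344 CPM (299 to 394), and Cd274 was 322 CPM (253 to 404) against 461 CPM (409 to 519). The cDC1-trait members came mainly from 2 libraries and single cells carried much of Il12b, so these levels have no replicate check, and the part of depth and doublets in them was not tested.

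Genes with a profile like that of Ccl22 were sought over 8 cell types in 4 libraries, 32 points that share libraries and cells of 1 type. Pearson's r of log2 CPM was highest for Cacnb3 (0.98), Gm13546 and Il12b (0.97), Tspan3 and Nudt17 (0.96), Uap1 and Tbc1d4 (0.95), Tmem39a and Mreg (0.94) and Mmp25 (0.93). The rule chose the migratory cells by Ccr7 and Fscn1, and these values are a description. Nudt17 averaged 241 CPM in the migratory cells and no more than 2.23 CPM in any other type.

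A second group of cells lay just outside the class II threshold. It held 154 cells that met every other criterion with under 3 H2-Ab1 UMIs, beside 139 members. Their median depth was 6432, 6013, 3329 and 5097 UMIs in the same order of libraries, below that of the members, which were 8013, 7632.5, 11638 and 10359. As CPM, which corrects for depth, H2-Ab1 was 95.9, 87.9, 145 and 46.6 in these cells and 6332, 6720.3, 5212 and 5776 in the members. Cd74, the invariant chain of class II, was 4345, 3856, 4614 and 4417 CPM, against 25616, 28425, 25259 and 24600 CPM in the members. H2-DMb2, a second chain of the peptide loader, was 3.09, 8.37, 6.29 and 15.5 CPM against 556, 720.0, 492 and 631 CPM. Ciita, the class II transactivator, was 0, 4.19, 0 and 5.18 CPM against 133, 84.0, 95.0 and 80.7 CPM.

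The maturation genes were nonetheless present in these cells. All 20 of the highest genes named above were at least 4-fold above immature cells in every library in them too, and 14 of the 20 lay within 2-fold of the members by median. Ccl22 was 789, 444, 798 and 627 CPM and had a UMI in 94 of 154 cells. Il12b was 581, 431, 742 and 1072 CPM and had a UMI in 90 of 154 cells (58.4%), against 35.3% of the members; thinned to 3000 UMIs the shares were 53.2% and 28.0%. Of 5050 genes, 12 were at least 2-fold higher than in the members in every library and 91 at least 2-fold lower. Ccl5 led the higher genes, at 10506, 17144, 16349 and 17558 CPM against 3199, 3876, 3937 and 6282 CPM, with no overlap. Il15ra was among them as well, at 170.1, 293, 138 and 259 CPM. Besides class II genes, the lower ones included Ccl4, Cxcl9, a chemokine for CXCR3, and Ly6a. The members' Ccl4 level rested largely on 1 cell a library, with 104 of 181, 106 of 114, 425 of 442 and 399 of 544 UMIs. The class II threshold is part of the choice of cells, and these differences carry no test.

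**Figure D4:**
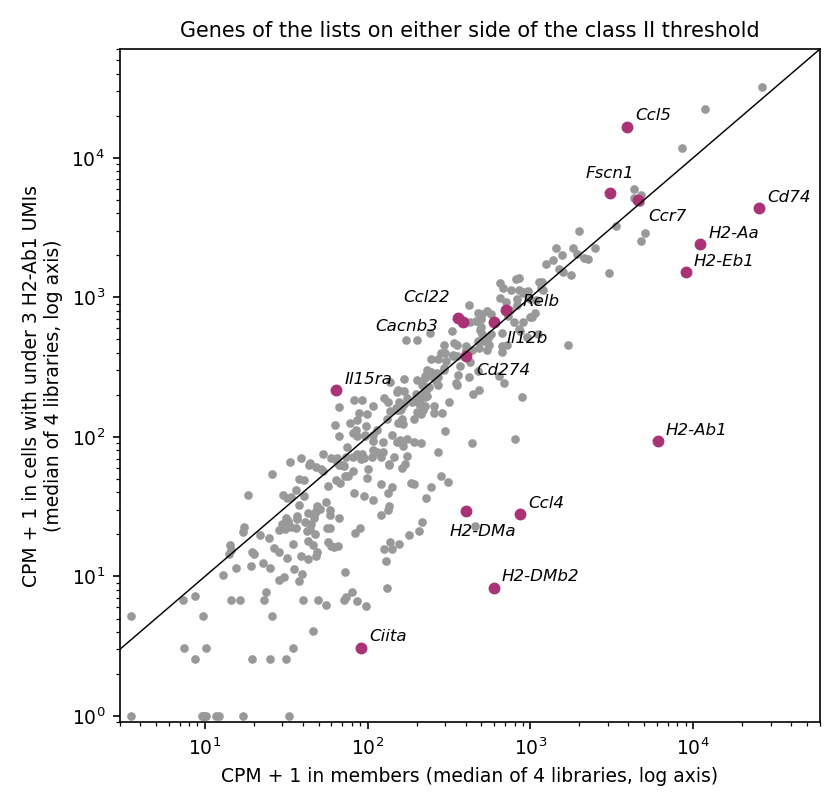
Median CPM + 1 over 4 libraries of the genes on the lists, in members (horizontal, log axis) and in the 154 cells with under 3 H2-Ab1 UMIs (vertical, log axis), with the line of equality. Ccl22, Il12b, Cacnb3, Relb and Cd274 lie near the line, Ccl5 and Il15ra above it, and H2-Ab1, H2-DMb2 and Ciita far below it.

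Genotype was not used by the rule and was tested on the 4 sums of member cells, 465732 and 249990 UMIs in WT replicates 1 and 2 and 347442 and 334634 in cKO replicates 1 and 2. Of 4151 genes tested with edgeR's quasi-likelihood test, 0 (0.0%) had a Benjamini-Hochberg adjusted p under 0.05, 217 had an unadjusted p under 0.05, and DESeq2 called 4. Leaving out WT replicate 1 gave 45 calls, WT replicate 2 gave 0, cKO replicate 1 gave 34 and cKO replicate 2 gave 7. In the test of all 4 libraries the maturation genes showed no called difference. Counts were also simulated at a biological coefficient of variation (spread between libraries beyond counting) of 0.2. There the test recovered 17 of 176 2-fold changes (9.66%) and 168 of 185 4-fold changes (90.8%). At 0.4 it recovered 30 of 169 4-fold changes (17.8%). The common estimate in these sums was 0.206, so a 2-fold change could easily go uncalled. Each simulation gave all genes the same spread, and a gene carried by few cells can vary more. For such a gene a 4-fold change could go uncalled too. Cd274 had a log2 change (cKO minus WT) of 0.32 ± 0.28 (SE, adjusted p = 0.996, edgeR), and without cKO replicate 2 of -0.07. Ccl22 had -0.41 ± 0.51 (adjusted p = 0.996), and without WT replicate 1 of 0.88.

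The smallest p-values belonged to Ccl3, Oasl1, Ckb and Ccl4, none past the threshold in the test of all 4 libraries. Oasl1, an interferon-induced gene, was 83.7 and 56.0 CPM in WT replicates 1 and 2 and 331 and 338 CPM in cKO replicates 1 and 2. Both cKO libraries were above both WT libraries, by 2.26 ± 0.28 on the log2 scale (SE, adjusted p = 0.0677, edgeR). It had a UMI in 15, 5, 15 and 16 members, and its highest cell held 17 of 39, 7 of 14, 20 of 115 and 34 of 113 UMIs. The 5 highest cells of each library held 69.2%, 100%, 62.6% and 75.2% of its UMIs. With the highest cell of each gene removed in each library, an alternative chosen after seeing the data, Oasl1 was the 1 gene called of 3433 (2.73 ± 0.32, adjusted p = 0.0154). Over the planned and added alternatives its change ranged from 1.72 to 2.73 and its adjusted p from 4.71e-05 to 0.396.

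Ccl3 and Ccl4, which encode inflammatory chemokines, were higher in both cKO libraries but rested on a few cells. Ccl4 was 389 and 456 CPM in WT replicates 1 and 2 and 1272 and 1626 CPM in cKO replicates 1 and 2 (1.82 ± 0.26, adjusted p = 0.0882, edgeR). One cell held 104 of 181, 106 of 114, 425 of 442 and 399 of 544 of its UMIs in these libraries. Ccl3 was 88.0 and 96.0 CPM in WT and 412 and 362 CPM in cKO (2.12 ± 0.26, adjusted p = 0.0677), and a single cell held 140 of its 143 UMIs in cKO replicate 1. Without the highest cells the changes were 1.21 for Ccl4 and 1.61 for Ccl3, each with an adjusted p of 0.999. With the highest doublet scores removed they were 4.696 (adjusted p = 0.000459) and 3.74 (adjusted p = 0.00471). Over all alternatives the adjusted p ranged from 1.93e-07 to 0.999 for Ccl4 and from 6.67e-08 to 0.999 for Ccl3.

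Ckb, the brain type creatine kinase, was lower in cKO, at 213 and 348 CPM in WT replicates 1 and 2 and 48.9 and 41.8 CPM in cKO replicates 1 and 2 (-2.55 ± 0.36, adjusted p = 0.0882, edgeR). It had a UMI in 12, 4, 6 and 5 members, and 1 cell held 69 of 87 UMIs in WT replicate 2. Zfp36l2, which encodes an mRNA-destabilising protein, was 208 and 204 CPM in WT and 60.4 and 65.7 CPM in cKO (-1.66 ± 0.27, adjusted p = 0.169). Ly6i, Gstt3 and Adam8 had higher values in both cKO libraries, with log2 changes of 1.70, 2.20 and 1.30 and adjusted p of 0.316, 0.500 and 0.582. Iglc3, an immunoglobulin light chain segment, and Sct, which encodes secretin, had 0 UMIs in WT. They were at least 10.1-fold and at least 10.5-fold higher in cKO, against a floor of 3 counts over the WT group. Their cKO UMIs lay in 2 cells for Iglc3, which has near-identical copies, and 5 for Sct.

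The effect of genotype was then set beside that in immature cells through an interaction term, with the library as a block. Of 8575 genes, 2 (0.0233%) were called, Ccl4 and Ckb. In immature cells Ccl4 was 1073 and 885 CPM in WT replicates 1 and 2 and 997 and 658 CPM in cKO replicates 1 and 2, and the cKO effect was 2.15 ± 0.31 larger in the migratory cells on the log2 scale (SE, adjusted p = 0.0331, edgeR). Ckb was 1026 and 864 CPM in WT and 949.9 and 873 CPM in cKO in immature cells, and the difference of effects was -2.42 ± 0.36 (adjusted p = 0.0331). Neither call held throughout: Ccl4 lost it without the highest cell of each gene (1.39, adjusted p = 0.296), and Ckb lost it when members needed at least 2 UMIs of Ccr7 and of Fscn1 (-1.37, adjusted p = 1) or when 1 lineage UMI sufficed for immature cells (-2.39, adjusted p = 0.061). Over all alternatives the adjusted p of this term ranged from 2.41e-16 to 0.296 for Ccl4 and from 1.21e-09 to 1 for Ckb. With WT replicate 1 left out 20 genes were called, with WT replicate 2 left out 5, with cKO replicate 1 left out 43 and with cKO replicate 2 left out 23. Oasl1 was 116, 120, 148 and 199.95 CPM in immature cells and its difference of effects was 1.78 ± 0.32 (adjusted p = 0.192).

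**Figure D5:**
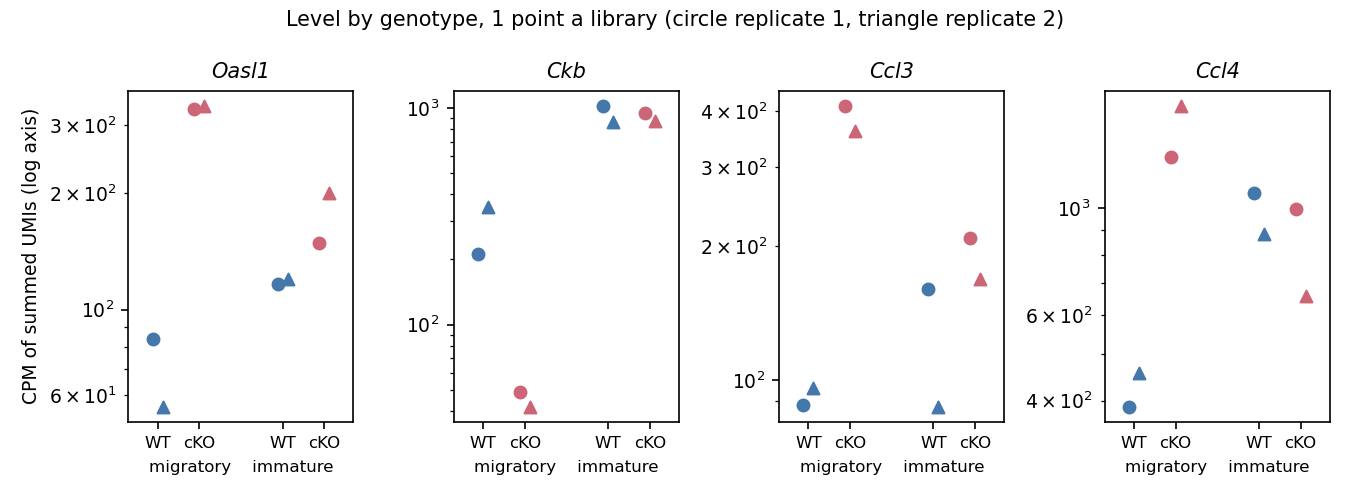
CPM of summed UMIs (log axis) of Oasl1, Ckb, Ccl3 and Ccl4 in migratory and immature dendritic cells, by genotype; 1 point a library, circles replicate 1 and triangles replicate 2. In migratory cells the 2 cKO points lie above both WT points for Oasl1, Ccl3 and Ccl4 and below them for Ckb, while in immature cells the Ckb points of the genotypes overlap.

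The interferon lists leaned one way between genotypes without a called gene. Of 21 type I interferon response genes tested in the migratory cells, 20 had a positive log2 change, with a median of 0.67, and 0 were called. Both cKO libraries were above both WT libraries for 8 of the 21, whereas 14.3% of all genes tested showed that order and 19.2% the reverse. Isg15, a ubiquitin-like modifier, was 919 and 748 CPM in WT replicates 1 and 2 and 1243 and 1907 CPM in cKO replicates 1 and 2 (0.95 ± 0.28, adjusted p = 0.936, edgeR). Ifit3, an antiviral effector, was 68.7 and 28.0 CPM against 77.7 and 239 CPM. The list summed to 4262 and 3144 CPM in WT and to 4867 and 7546 CPM in cKO. In immature cells it summed to 5828 and 6438 CPM in WT and to 5872 and 8898 CPM in cKO. In both states it was highest in cKO replicate 2, the library that stood apart by Xist and Ddx3y. Without that library, 17 of 22 genes were positive with a median of 0.28, and the changes were 0.62 for Isg15 (adjusted p = 0.810) and 0.63 for Ifit3 (adjusted p = 0.967, edgeR). Leaving out WT replicate 1 instead gave 23 of 24 positive genes and a median of 0.85. Without WT replicate 2 these were 20 of 25 and 0.43, and without cKO replicate 1 they were 22 of 25 and 0.85. Over all genes tested, 51.65%, 52.77% and 48.69% were positive in these fits, in the same order. What sets cKO replicate 2 apart was not tested as a part of the result.

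Other lists had smaller medians. Over all 4147 genes tested outside the rule, 49.7% had a positive change, and 46.7% without cKO replicate 2. Of 12 chemokine genes 9 were positive, with a median of 0.41 and 0 called, and 5 of 12 with a median of -0.10 without cKO replicate 2. The chemokine median was 1.68 without WT replicate 1, 0.66 without WT replicate 2 and 0.85 without cKO replicate 1. Of 20 interferon gamma response genes 18 were positive, with a median of 0.48 and 0 called, and 16 of 20 with a median of 0.28 without cKO replicate 2. The list summed to 2931 and 2340 CPM in WT and 3071 and 4964 CPM in cKO members, and to 2826 and 3102 CPM in WT and 3719 and 4537 CPM in cKO immature cells, which had the same order. Irf1, a transcription factor of that response, was 210.4 and 232 CPM in WT and 331 and 394 CPM in cKO, with a change of 0.76, and of 0.63 without cKO replicate 2 (adjusted p = 0.936 and 0.846, edgeR).

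Of 24 NF-kB genes 21 were positive, with a median of 0.27, and 16 without cKO replicate 2. Their sum was 7549 and 7348 CPM in WT and 7434 and 9004 CPM in cKO, so cKO replicate 1 lay between the WT libraries. Of 22 class I genes 19 were positive, with a median of 0.15, but 11 without cKO replicate 2, and the sums overlapped at 21452 and 26217 CPM in WT and 23768 and 27134 CPM in cKO. The 5 UFM1 conjugation genes tested were all negative, with a median of -0.29, and 9 of 11 class II genes were negative, with a median of -0.14. Without WT replicate 2 both medians turned, to 0.07 and 0.10. With cKO replicate 2 left out they were -0.10 and -0.18.

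Monocyte markers moved with genotype in part: as a list they summed to 2332 and 1632 CPM in WT members and 2605 and 3712 CPM in cKO members, and Ly6c2 alone, a surface gene of inflammatory monocytes, stood at 425, 84.0, 492 and 1404.5 CPM. In each library at most 5 cells held 96.5%, 100%, 98.3% and 98.5% of the Ly6c2 UMIs, and the highest cell 99 of 198, 14 of 21, 73 of 171 and 185 of 470. Without cKO replicate 2 the monocyte list had 5 of 8 positive genes and a median of 0.40. Macrophage genes summed to 775 and 688 CPM in WT members and 1033 and 1174 CPM in cKO members. Of 6 tested, 6 were positive, with a median of 0.50 and 0 called. Without cKO replicate 2, 4 of 6 were positive with a median of 0.22, and without WT replicate 2, 3 of 6 with 0.19. Whether monocyte or macrophage genes bear on the interferon lists was not tested.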

How the data were processed

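Single-cell libraries of CD45+ cells were read with a 10x Genomics droplet kit, per the labels. What the authors deposited is, for each library, a matrix of unnormalised UMI counts written by Cell Ranger 6.1.1, per the file headers. CASAVA 1.8 and Seurat are listed in the submitters' processing notes. The build is not given in the sources used here. No cell annotation was used. Groups came from the sample titles, and 0 columns of unmapped samples were present.

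Of 32801 barcodes, 32396 passed the filter of 300 genes and 15% mitochondrial UMIs. Scrublet's automatic threshold (scanpy 1.11.5) called 0 doublets everywhere, which was taken as a failure of the caller, so doublets were kept. An alternative removed the highest scores at 0.8% per 1000 cells. Gates were set on raw UMIs; library depth was 64141857 to 79747752 UMIs, and few members per library (28 to 49) limit the precision of every sum. Members and gene lists were chosen with earlier results of these data known.

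UMIs were summed per library and state. Migratory and immature cells were compared on the CPM + 5 scale without a test, among genes with a mean of at least 20 CPM. Genotype was tested with edgeR 4.0.16 (R 4.3.3, quasi-likelihood, TMM scaling, filterByExpr). P-values were adjusted by Benjamini-Hochberg over all genes tested, with a threshold of 0.05, and DESeq2 1.42.0 was an alternative. The tests were run on simulated counts. At a biological coefficient of variation of 0.4, the migratory test recovered 0 of 178 2-fold changes and 30 of 169 4-fold changes. At 0.2, the interaction test recovered 0 of 198 2-fold changes and 64 of 195 4-fold changes. Shares were compared by exact two-sided permutation over libraries (scipy 1.17.1). For detection shares, cells were thinned to 3000 UMIs. Python 3.11.15 with numpy 2.4.6 and pandas 2.3.3 was used, and matplotlib 3.10.9 drew the plots.

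Named genes were the 20 highest and up to 15 lowest median ratios among genes past 4-fold in every library with at least 100 CPM in the higher state (11 were lower, of which 1 is not reported here), the most abundant or textbook members of each list, the 10 smallest genotype p-values and the 10 profiles most like that of Ccl22. Genes outside that rule were named after their values were seen: Hbb-bs, Ly6d, Siglech, Ido1, Aldh1a2, and the genes named for the cells under the class II threshold. Alternatives varied scaling, filters, thresholds, pseudocount, the immature reference, doublets, the replicate block and each library left out. Including cells under the H2-Ab1 threshold, leaving out the highest cell of each gene, and the lists with a library left out, were chosen after seeing the data.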

Additional observations from a re-analysis of the deposited data

Results flagged for a closer look

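Ccl4 was picked out because its cKO minus WT change differed between the migratory and the immature dendritic cells of the same libraries: the difference of the log2 changes was 2.15 by the interaction test. Ckb was picked out by the same test, with a difference of -2.42. In the migratory cells 1 cell carried 425 of the 442 Ccl4 UMIs of cKO replicate 1, and 1 cell carried 69 of the 87 Ckb UMIs of WT replicate 2. The groups of 2 libraries were too small to look for outlying libraries.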

How the results depend on the processing

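The count of genotype genes in the migratory cells, 0, became 4 with DESeq2, 51 without a filter on low counts, 1 with at least 2 UMIs of Ccr7 and Fscn1, 8 with the highest doublet scores removed, 1 without the highest cell of each gene, and 0 to 45 with a library left out. In immature cells it was 0 and became 21 without the filter, and 0 to 21 with a library left out. The interaction count of 2 became 29 without the filter, 1 with at least 2 UMIs of Ccr7 and Fscn1, 1 with immature lineage UMIs of at least 1, 8 without the highest cell, and 5 to 43 with a library left out. For the replicate block, same-numbered libraries deviated with a correlation of -0.02 in the migratory sums. No pairing by number was seen there, but sums of so few cells could miss one. The block gave 0 calls in the migratory and 2 in the immature cells. In the immature cells it moved the genes with an unadjusted p under 0.05 from 276 to 381 (edgeR). With a library left out, differences in share ranged from -0.281 to 0.0939 points of all cells, -2.15 to 3.55 of dendritic cells and -6.07 to 31.3 for cDC1 traits. Genes 4-fold higher (142) became 70 with a pseudocount of 20 and 365 at 2-fold. Genes 4-fold lower (19) became 31 and 4 with pseudocounts of 1 and 20, 239 at 2-fold, 39 and 34 against cDC1 and cDC2 alone, 40 with doublet scores removed, 38 with no H2-Ab1 threshold and 21 to 53 with a library left out. With a library left out, the log2 change spanned zero for Cd274 (-0.0663 to 0.626) and Ccl22 (-1.04 to 0.883) and, in immature cells, for Ccl4 (-0.635 to 0.0258) and Ckb (-0.177 to 0.0169). Causes were not tested. A fit with a library left out assumes that the lone sample varies like the others. With 28 to 49 members a library, a transcript in few cells is set by those cells, and a missing call does not show equal levels.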
